A study of Homo sapiens with 6 samples.

Results

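The zinc finger genes of human chromosome 19 were followed in RNA that an antibody against 5′ caps had pulled down from MOLT-4 cells. Members were all genes whose name on the array is ZNF followed by a number, or by a number and 1 letter, and whose probe lies on chromosome 19. This gave 245 of the 36328 gene names on the array, read by 367 probes, and the brightest probe stood for each gene. A single probe was present for 145 members, and up to 4 for the other 100. MOLT-4 is an established line of leukaemic T lymphoblasts. It received either an empty vector, called mock here, or NUDT16, which encodes an enzyme that removes caps from RNA. Each group had 3 arrays of eluate from the m3G/m7G cap immunoprecipitation, numbered 1 to 3, and nothing in the labels says that they came from separate cultures, so p-values measure only the spread between these samples. The input to the pull-down was not analysed here, so the eluate signal carries both the amount of a transcript and how much of it was captured.

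Zinc finger proteins of this family bind DNA through a row of small domains, each folded around a zinc ion held by cysteine and histidine residues. Many carry a KRAB domain, which recruits TRIM28 and through it the histone methyltransferase SETDB1, and so silences the DNA they bind, transposable elements above all. The chromosome 19 genes arose largely by tandem duplication, stand in long clusters and often differ by few bases, so that a probe for one gene can also bind transcripts of its neighbours.

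That likeness was visible in the probes. Among the members' probes, 22 pairs shared a run of at least 20 identical bases, involving 16 members, and 21 of these pairs lay within one positional cluster. The longest run, 34 bases, was shared by ZNF253 and ZNF85. The 3 probes below are shown because their genes' signals moved almost together across the arrays. Each is written 5′ to 3′ as the file gives it, with the longest run shared with a partner in capitals. ZNF253 (chr19:20002774-20002833, plus strand), ZNF85 (chr19:21132382-21132441, plus strand) and ZNF729 (chr19:22499726-22499785, plus strand) are shown, and ZNF729 is marked against ZNF253. All coordinates of probes are on hg19.
ZNF253: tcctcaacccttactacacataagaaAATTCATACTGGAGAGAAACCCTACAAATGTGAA
ZNF85: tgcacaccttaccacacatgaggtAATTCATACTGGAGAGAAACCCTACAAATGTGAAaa
ZNF729: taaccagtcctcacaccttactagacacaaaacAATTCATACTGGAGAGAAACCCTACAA

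The capitals read, in frame, through the short linker of threonine, glycine, glutamate, lysine and proline that joins neighbouring zinc fingers. This linker was encoded in an open frame in the probes of 8 members, namely ZNF160, ZNF233, ZNF253, ZNF568, ZNF585B, ZNF729, ZNF814 and ZNF85. The levels given for genes with such shared runs are therefore uncertain between relatives.

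The arrays differed in signal, and NUDT16 replicate 2 stood apart. The 75th percentile of intensity over the 6582 probes that were well above background on all 6 arrays was 224 on that array and between 2701 and 7717 on the other 5. On that array 13.6% of probes were well above background, against 36.1% to 49.6% elsewhere. Values below are log2 signals relative to this percentile of the same array, so 0 is the level of a fairly bright probe. Both probes for NUDT16 itself lay at background on every array, with intensities from 4.19 to 9.97. Which part of its transcript the vector carried is not given in the sources used here, so the arrays do not check that label. The lymphoblast identity could be checked. Of 14 T-lineage markers 12 were well above background on all mock arrays, among them CD3D, CD3E and LCK. The B-lineage markers MS4A1 and PAX5, the myeloid markers CSF1R, ITGAM and MPO, and the erythroid HBB were above background on none, while the B-lineage CD79A was on all 6 arrays. The arrays read RNA from a whole culture, in which fewer cells of a type and less RNA per cell cannot be told apart.

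Most chromosome 19 zinc finger genes gave a signal in the immunoprecipitate. On the 3 mock arrays 85.7%, 79.6% and 91.8% of members were well above background, against 49.8%, 38.6% and 50.8% of all genes on the array. Among the 278 ZNF genes on other chromosomes the shares were 76.3%, 66.2% and 78.8%, and among the 1622 other genes of chromosome 19 they were 62.5%, 47.3% and 59.5%. On the NUDT16 arrays members stood at 67.3%, 17.6% and 91.4%, and the array with the low share was the dim replicate 2. The members were thus detected more often than all genes on each array. On NUDT16 replicate 2 the margin was small, with all genes at 16.3% and the other chromosome 19 genes higher, at 28.1%.

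**Figure D1:**
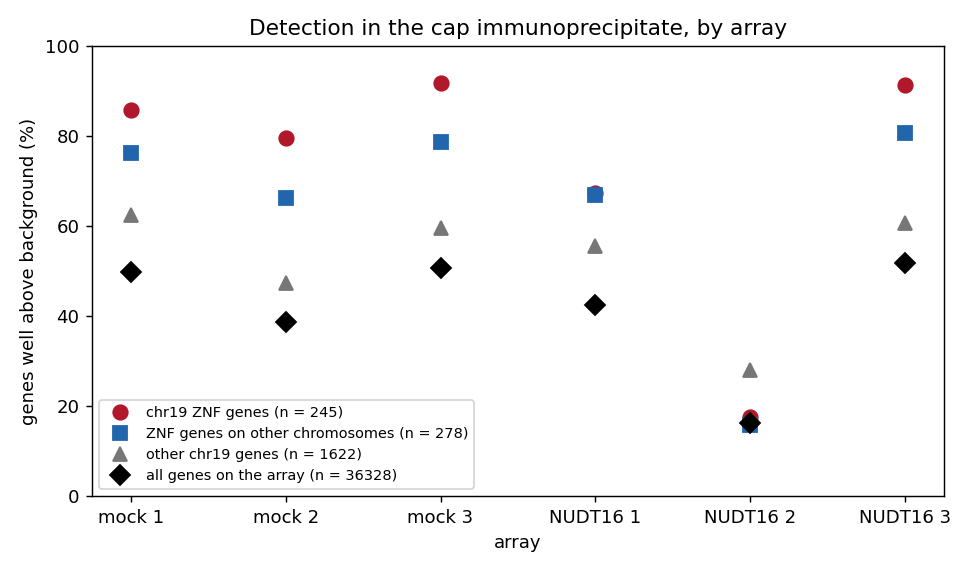
Percent of genes well above background on each of the 6 arrays, for the 245 chromosome 19 ZNF genes, 278 ZNF genes elsewhere, 1622 other chromosome 19 genes and all 36328 gene names. The chromosome 19 ZNF genes reach 91.8% on mock replicate 3 and drop to 17.6% on NUDT16 replicate 2, where all groups are low.

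By number of arrays, 42 members were well above background on all 6, 116 on 5, 39 on 4, 17 on 3, 9 on 2, 5 on 1 and 17 on none. Of the 116 on 5 arrays, 115 missed NUDT16 replicate 2 alone. The 17 on none were ZNF554, ZNF556, ZNF560, ZNF708, ZNF536, ZNF829, ZNF793, ZNF404, ZNF221, ZNF285, ZNF229, ZNF541, ZNF114, ZNF534, ZNF665, ZNF471 and ZNF772. ZNF536 is known as a regulator of neuronal differentiation. Among the 4 members whose symbol ends in P, as pseudogenes do, ZNF137P was detected on 5 arrays, ZNF702P on 4, ZNF818P on 3 and ZNF833P on 1. No member was well above background on all arrays of one group and none of the other.

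In the comparison of NUDT16 with mock, no chromosome 19 zinc finger gene was called. A probe was tested where a whole group of 3 arrays had it well above background, which held for 17765 probes and 190 members, all 190 through the mock arrays. At an adjusted p of 0.05 (limma, Benjamini-Hochberg over all probes) 0 of 190 members were called, against 0.00563% of all probes tested. The smallest adjusted p of a member was 0.9992 (limma). At an unadjusted p under 0.05 there were also 0 members, against 0.045% of all probes, and the smallest p of a member was 0.1199 in limma's fit over all probes. Groups without overlap were found in 0 members and in 0.591% of probes. The median standard error of a member's difference was 0.76 on the log2 scale, so a 2-fold difference, which is 1 on that scale, was little larger than the error of a typical member.

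The members' differences leaned to lower signal with NUDT16. Their median was -0.41 on the log2 scale, against -0.11 over all probes tested, with 157 members lower and 33 higher. The lean was not stable across settings: with normexp background correction the median was 0.34 and 22.1% of members were lower in place of 82.6%, and the median was 0.079 without NUDT16 replicate 1, -0.09 without mock replicate 3, -0.83 without mock replicate 1 and -0.92 without NUDT16 replicate 3. Leaving out a single array leaves its slide without a pair, and whether this moved the medians was not tested. With the whole of slide 2 left out and the block the median was -0.42, against -0.22 over all probes. With normexp the median of all probes was 0.47, so the members stayed below it, whereas without NUDT16 replicate 1 they did not, with all probes at 0.044. With no scaling between arrays all 190 were lower, and the median of all probes was -1.10. At least 2-fold lower were 15 members, none of them detected on all 6 arrays, and 0 were 2-fold higher. They were ZNF699, ZNF443, ZNF709, ZNF93, ZNF507, ZNF302, ZNF146, ZNF567, ZNF345, ZNF468, ZNF702P, ZNF160, ZNF542, ZNF419 and ZNF814. Of the members tested, 147 were not well above background on NUDT16 replicate 2 and 33 not on NUDT16 replicate 1, so these differences rest partly on values at background. Only 42 passed the filter on the NUDT16 arrays and the rest entered through the mock arrays alone, where they are high, so the counts of lower and higher members are drawn toward lower and support no direction.

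**Figure D2:**
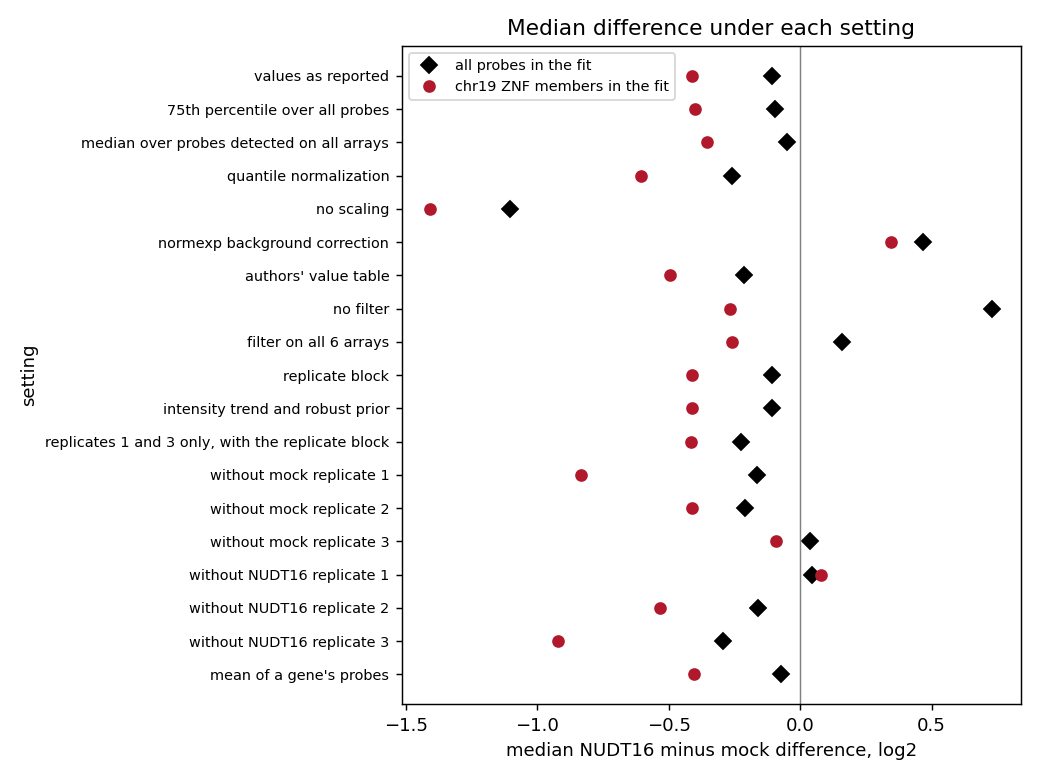
Median log2 difference, NUDT16 minus mock, under each setting of the analysis, for the chromosome 19 ZNF members in that fit (circles) and all probes in it (diamonds). The members' median is -0.41 as reported, 0.34 with normexp and 0.079 without NUDT16 replicate 1.

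Arrays of the same number shared a slide, so the 3 differences within a slide were also read. Their medians over the tested members were -0.63, -0.33 and -0.22 for replicates 1, 2 and 3, against -0.32, 0.12 and -0.03 over all genes. ZNF genes on other chromosomes had medians of -0.51, -0.32 and -0.18. Of 190 members, 105 were lower in all 3 pairs, against 27.5% of all probes, and 12 were higher in all 3, against 15.9%. With the replicate number as a block, 31 members were lower at an unadjusted p under 0.05, against 8.94% of all probes, and 0 were higher, against 0.816%. Their smallest adjusted p was 0.4671 (limma), so none was called. The block brought the median standard error of a member's difference to 0.34. Of the 190 members only 42 passed the filter on the NUDT16 arrays, and the rest entered through the mock arrays alone. The counts of lower and higher members, in the pairs and with the block, are thus drawn toward lower and support no direction.

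Restricted to the 42 members detected on all 6 arrays, the same-slide medians were -0.24, -0.13 and -0.20, against -0.09, 0.38 and 0.05 over all genes so detected. Lower in all 3 pairs were 21 of the 42, against 19.3% of the probes detected on all 6 arrays, and higher in all 3 were 8, against 27.0%. These 42 ranged from -0.83 to 0.71 in the group difference and none reached a 2-fold difference.

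Without the dim slide 2, with replicates 1 and 3 and the block, 13 members were called lower at an adjusted p of 0.05 (limma), against 3.38% of all probes, and 0 higher, against 0.0675%. They were ZNF699, ZNF507, ZNF790, ZNF230, ZNF225, ZNF175, ZNF702P, ZNF347, ZNF761, ZNF583, ZNF460, ZNF549 and ZNF552, with differences from -1.70 to -1.03. This fit gave every member the same standard error, 0.30, so a call follows from the size of the difference and not from the likeness of the slides. ZNF699, for instance, had -2.52 on slide 1 and 0.02 on slide 3. Of the 13, 12 were not well above background on NUDT16 replicate 1, and none was detected on all 6 arrays. All entered the test through the mock arrays alone, so the absence of higher calls shows no direction of the family. ZNF175, which is known as a repressor of HIV transcription, was the member above background on that array. Its levels were -5.59 and -4.36 in mock replicates 1 and 3 and -7.37 and -4.87 in NUDT16 replicates 1 and 3. ZNF507 had -7.05 and -3.64 in mock and -9.32 and -4.77 in NUDT16. In both genes the lowest value was NUDT16 replicate 1, and the arrays of slide 1 were all below those of slide 3. Among the members detected on all 6 arrays the smallest adjusted p in this fit was 0.232 (limma).

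Among members detected on all 6 arrays, the 2 clusters that held most of them leaned in different directions. Cutting where neighbouring probes lay over 1000000 bases apart gave 16 clusters, of which 9 held 5 or more members and 234 in all. By the probes' positions 82 members lay on the short arm and 163 on the long arm. The cluster from ZNF101 to ZNF254 (chr19:19790730-24309903) held 34 members, and 16 of them were detected on all 6 arrays. Of those 16, 15 were lower with NUDT16 in all 3 pairs, with medians of -0.26, -0.96 and -0.30. The exception was ZNF90. The cluster from ZNF628 to ZNF446 at the end of the long arm (chr19:55995696-58992591) held 59 members, 13 detected on all 6 arrays. There 7 of the 13 were higher in all 3 pairs and 1, ZNF671, was lower, with medians of 0.24, 0.72 and 0.05. Of all probes detected on all 6 arrays, 19.3% were lower and 27.0% higher in all 3 pairs. Over all 50 tested members of the ZNF628 to ZNF446 cluster the lean was not to higher values. There 14 were lower and 9 higher in all 3 pairs, with pair medians of -0.71, 0.21 and -0.09. Over the 30 tested members of the ZNF101 to ZNF254 cluster 22 were lower and 0 higher in all 3 pairs. Over all probes tested the shares were 27.5% and 15.9%. In both clusters the tested members not detected on all 6 arrays entered through the mock arrays alone. The counts over tested members are thus drawn toward lower and support no direction. No member of either cluster passed the test, and the difference between the clusters was not tested.

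**Figure D3:**
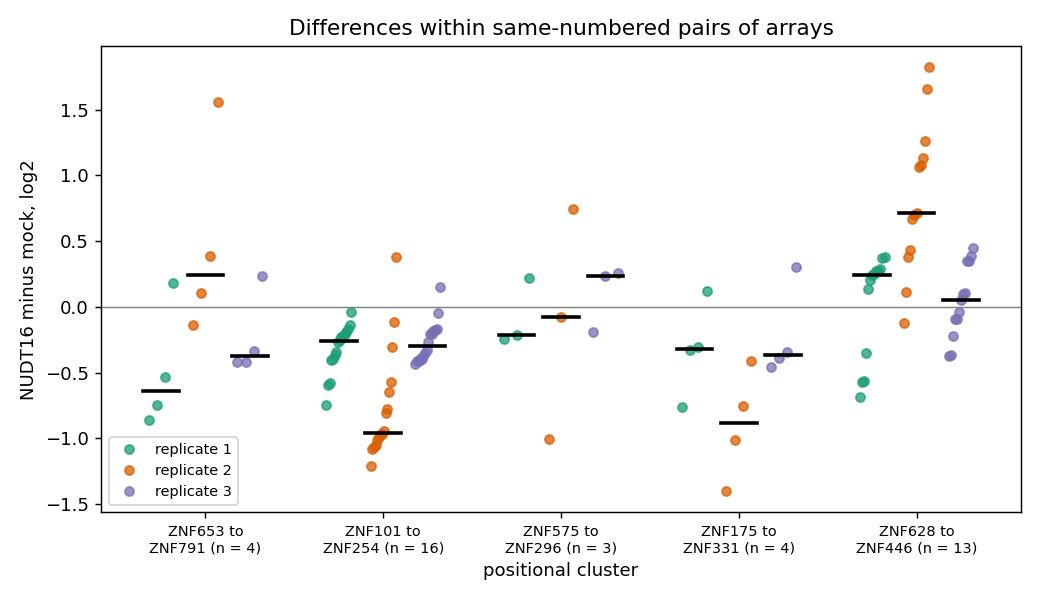
Log2 difference, NUDT16 minus mock, within each same-numbered pair of arrays, for members detected on all 6 arrays, by positional cluster (clusters with at least 3 such members). Points are members and bars medians; the ZNF101 to ZNF254 cluster lies mostly below 0 and the ZNF628 to ZNF446 cluster mostly above, with the widest spread in replicate 2.

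In the ZNF101 to ZNF254 cluster the lower signal was shared by genes with related probes. ZNF85 is a KRAB zinc finger gene, and its levels were -1.51, 0.23 and 0.71 in mock and -1.91, -0.85 and 0.36 in NUDT16. Each NUDT16 array was below its partner on the same slide, yet the groups overlapped, because replicate 1 was low and replicate 3 high in both. The difference was -0.61 ± 0.78 (SE, n = 3 arrays a group; limma adjusted p 0.9992). ZNF253 gave -0.18, 1.75 and 2.16 in mock and -0.41, 0.70 and 1.74 in NUDT16. ZNF729 gave -1.73, -0.01 and 0.53 in mock and -2.12, -0.98 and 0.15 in NUDT16. Both had the same order of arrays within each group as ZNF85, with overlapping groups.

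The largest group of related probes joined 12 members, 8 of them detected on all 6 arrays. Their same-slide differences were tight, from -0.40 to -0.14 in pair 1, from -1.21 to -0.94 in pair 2 and from -0.43 to -0.33 in pair 3. The 8 other members of the cluster detected on all 6 arrays ran from -1.07 to 0.38 in pair 2, and the 34 members outside the group from -1.40 to 1.82. Whether the 8 genes were each lower or shared signal from one another was not tested.

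Outside that group, ZNF486 had levels of -3.61, -1.90 and -1.39 in mock and -4.19, -2.97 and -1.56 in NUDT16, and the difference was -0.61 ± 0.81 (SE). ZNF101 had -3.14, -2.59 and -2.27 in mock and -3.89, -3.40 and -2.31 in NUDT16. ZNF486 and ZNF101 were lower on each slide, with overlapping groups. ZNF90, the exception, had 2.07, 2.16 and 1.63 in mock and 2.04, 2.53 and 1.78 in NUDT16. Its replicate 3 was the lowest in both groups, the reverse of its neighbours. From the ZNF175 to ZNF331 cluster, ZNF600 had the lowest group difference of the 42, -0.83 ± 0.98 (SE). Its levels were -4.09, -1.67 and -0.98 in mock and -4.85, -3.07 and -1.33 in NUDT16, again overlapping. ZNF701 of the same cluster had -1.96, 0.25 and 0.29 in mock and -2.27, -0.76 and -0.16 in NUDT16. Without NUDT16 replicate 1 the differences of ZNF486, ZNF600 and ZNF701 were 0.033, 0.048 and 0.012.

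Higher values with NUDT16 came mainly from the last cluster. ZNF446 had levels of -1.60, -3.53 and -2.70 in mock and -1.46, -1.87 and -2.36 in NUDT16, a difference of 0.71 ± 0.66 (SE). The pair differences were 0.14, 1.65 and 0.35, so most of it came from replicate 2. ZNF444, a SCAN domain zinc finger protein without a KRAB domain, had 0.42, -0.62 and -1.14 in mock and 0.69, 0.05 and -0.70 in NUDT16. Its 3 pair differences were 0.27, 0.67 and 0.44. ZNF837 had -0.93, -2.30 and -2.26 in mock and -0.68, -1.23 and -2.15 in NUDT16. The groups overlapped in ZNF446, ZNF444 and ZNF837, with replicate 1 highest in each group. ZNF587 gave 0.62 ± 0.62 (SE) by its brightest probe, while its second tested probe gave -0.45, so its direction depends on the probe. ZNF787, ZNF524 and ZNF579 of the same cluster had differences of 0.35, 0.34 and 0.35. ZNF653, at the head of a short-arm cluster, had -3.56, -4.71 and -4.25 in mock and -3.37, -3.15 and -4.01 in NUDT16. It too was higher on each slide, with a pair difference of 1.56 in replicate 2. With no scaling, ZNF446, ZNF444, ZNF837, ZNF587, ZNF787, ZNF524, ZNF579 and ZNF653 were all below 0.

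Signal differed widely between replicates 1 and 3 in most of these genes. In 41 of the 42 members detected on all 6 arrays the distance between mock replicates 3 and 1 exceeded the distance between the groups. The first distance is between single arrays and the second between means of 3, so this count does not rank slides against groups. Over the tested members replicate 3 lay above replicate 1 by a median of 1.68 in mock and 2.12 in NUDT16, against 0.24 and 0.57 over all genes. Other ZNF genes had medians of 0.97 and 1.44, and other chromosome 19 genes -0.59 and -0.60. Replicate 3 was above replicate 1 in both groups in 166 of 190 members and below in 21. Of the 190, 33 were not well above background on NUDT16 replicate 1, so this count rests partly on values at background. The share over all probes was not counted. What differed between slides 1 and 3 was not tested, and slide, scan and replicate number cannot be told apart.

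**Figure D4:**
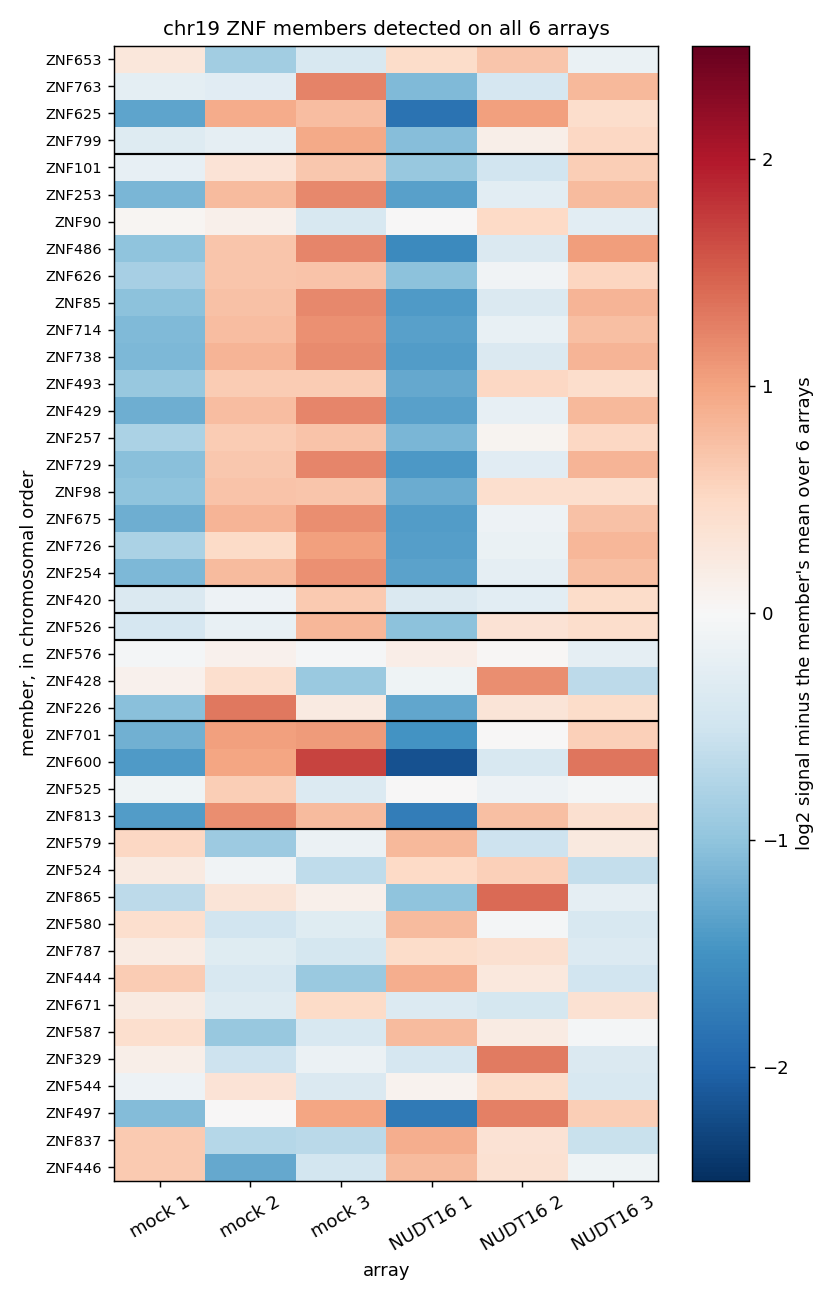
Log2 signal of the 42 members detected on all 6 arrays, each minus its own mean over the arrays (colour), in chromosomal order with lines between positional clusters. Columns of the same number resemble each other in both groups, and the ZNF101 to ZNF254 block is low on replicate 1 and high on replicate 3.

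Among members detected on all 6 arrays the slide pattern also differed by cluster. In the ZNF101 to ZNF254 cluster the members detected on all 6 arrays had replicate 3 above replicate 1 by medians of 2.22 in mock and 2.11 in NUDT16. In the ZNF628 to ZNF446 cluster the medians were -0.67 and -0.80. Over all 50 tested members of the latter cluster, however, they were 0.63 and 1.32, the same direction as in the ZNF101 to ZNF254 cluster. ZNF625, from the ZNF653 to ZNF791 cluster, had -1.65, 0.58 and 0.43 in mock and -2.19, 0.69 and 0.10 in NUDT16. ZNF497, of the ZNF628 to ZNF446 cluster, had -3.39, -2.30 and -1.32 in mock and -4.07, -1.04 and -1.70 in NUDT16. Replicate 1 was lowest in both groups in ZNF625 and ZNF497. ZNF226 and ZNF526 also had replicate 3 above replicate 1 in mock and in NUDT16, by 1.28 and 1.76 in ZNF226 and by 1.26 and 1.45 in ZNF526.

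Promoters of the 2 clusters had different medians of CpG content, counted over the 250 bases before the RefSeq start (GRCh38.p14). Promoters were found for 208 members, and the CG pairs had a median of 16 there and 11 over all 27305 promoters in the table. CG was present in every one of the 208 members' windows and in 93.6% of all windows. The ZNF101 to ZNF254 cluster had a median of 8 CG pairs, ranging from 3 to 14, and the ZNF628 to ZNF446 cluster a median of 19, ranging from 8 to 35, so the clusters overlapped. One pair from each cluster is printed, plus strand, with CG in capitals: ZNF85 (chr19:20923001-20923250) and ZNF486 (chr19:20166964-20167213) from the first, ZNF444 (chr19:56141037-56141286) and ZNF446 (chr19:58476102-58476351) from the second.
ZNF85: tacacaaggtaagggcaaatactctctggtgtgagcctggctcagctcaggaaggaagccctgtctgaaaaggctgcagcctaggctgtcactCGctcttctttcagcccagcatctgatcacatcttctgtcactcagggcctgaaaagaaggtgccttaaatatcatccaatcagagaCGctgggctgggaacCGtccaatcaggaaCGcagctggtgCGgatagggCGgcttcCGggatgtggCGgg
ZNF486: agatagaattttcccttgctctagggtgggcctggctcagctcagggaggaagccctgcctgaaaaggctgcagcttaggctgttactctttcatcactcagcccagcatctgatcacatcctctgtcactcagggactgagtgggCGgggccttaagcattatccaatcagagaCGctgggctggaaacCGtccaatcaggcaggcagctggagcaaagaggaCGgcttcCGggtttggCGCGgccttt
ZNF444: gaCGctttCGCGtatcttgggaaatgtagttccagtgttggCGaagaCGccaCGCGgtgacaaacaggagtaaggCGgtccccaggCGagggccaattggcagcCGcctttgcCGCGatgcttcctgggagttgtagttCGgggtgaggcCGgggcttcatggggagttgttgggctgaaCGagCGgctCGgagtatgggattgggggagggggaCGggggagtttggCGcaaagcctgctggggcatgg
ZNF446: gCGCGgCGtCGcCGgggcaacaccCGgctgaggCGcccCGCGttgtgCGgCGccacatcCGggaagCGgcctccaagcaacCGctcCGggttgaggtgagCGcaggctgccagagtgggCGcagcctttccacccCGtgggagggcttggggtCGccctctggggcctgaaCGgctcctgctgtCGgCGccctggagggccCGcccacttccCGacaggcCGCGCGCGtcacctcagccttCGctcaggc

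ZNF85 held 8 CG pairs in this window, ZNF486 7, ZNF444 19 and ZNF446 29. Among the members detected on all 6 arrays, those lower in all 3 pairs had a median of 9 CG pairs (15 promoters, 5 to 25), and those higher in all 3 had a median of 19 (7 promoters, 8 to 29). Across 35 such members the CG count and the pair 2 difference had a Pearson r of 0.62 and a Spearman rho of 0.64. Outside the group of related probes r was 0.51 over 30 members. In pairs 1 and 3 r was 0.27 and 0.19, and outside that group 0.28 and -0.02. The CG count also went with the difference between slides inside each group. With replicate 3 minus replicate 1 its r over the 35 members was -0.50 in mock and -0.52 in NUDT16. Outside the group of related probes these were -0.35 and -0.41. The ZNF565 to ZNF573 and ZNF175 to ZNF331 clusters had medians of 18.5 and 18 CG pairs. Of their tested members 15 of 21 and 22 of 32 were lower in all 3 pairs, against 27.5% of all probes tested. In the ZNF628 to ZNF446 cluster 14 of 50 tested members were lower and 9 higher in all 3 pairs, the latter against 15.9%. The ZNF565 to ZNF573 and ZNF175 to ZNF331 clusters had only 1 and 4 members detected on all 6 arrays. In each of these clusters the other tested members entered through the mock arrays alone. These counts over tested members are thus drawn toward lower and support no direction. A link between CG count and direction was not tested. The GC content of the probe had an r of 0.56 with the pair 2 difference over the 42 members, and 0.47 over all 6582 probes detected on all 6 arrays. Pair 2 includes the dim array, and members share libraries and neighbours, so no test is given.

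Members with a known role, chosen for that role after values were seen, gave no called difference over the 6 arrays, and ZNF175, described above, was called lower with replicates 1 and 3 alone. ZNF91 and ZNF93 are known to repress retrotransposons of the SVA and LINE families. ZNF93 had -4.95, -3.71 and -2.77 in mock and -5.48, -5.73 and -3.25 in NUDT16, a difference of -1.02 ± 0.81 (SE). ZNF91 had -5.82, -6.81 and -4.70 in mock and -6.14, -5.79 and -4.97 in NUDT16, a difference of 0.14 ± 0.69 (SE). Groups overlapped in both, and NUDT16 replicate 2 was at background for both. ZNF274, which is known to direct SETDB1 to zinc finger gene bodies, had a difference of -0.19 ± 0.72 (SE) and was detected on 4 arrays. ZNF675, a negative regulator of TRAF signalling, had -1.60, 0.48 and 0.79 in mock and -1.76, -0.49 and 0.36 in NUDT16. ZNF473, which takes part in histone pre-mRNA processing, had a difference of -0.07 ± 0.63 (SE). Its pair differences were -0.96, 0.92 and -0.17, of which the 0.92 rests on background signal on NUDT16 replicate 2. ZNF420, a known regulator of p53, had -3.31, -3.06 and -2.29 in mock and -3.31, -3.20 and -2.49 in NUDT16. Each NUDT16 array of ZNF420 lay within 0.20 of its partner, and the groups overlapped.

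Transcripts for a list of proteins that KRAB domains work through were read as well. Of 25 listed genes for TRIM28 and its partners, 25 were tested, 14 were detected on all 6 arrays and 0 were called in either direction over the 6 arrays (limma). Their median difference was -0.37, against -0.11 over all probes tested. In all 3 pairs 12 were lower, against 27.5% of all probes, and 2 higher, against 15.9%. All 25 were well above background on every mock array but only 14 on all 6 arrays. These counts are thus drawn toward lower and support no direction. TRIM28, the corepressor that binds KRAB, had a difference of 0.36 ± 0.75 (SE), and SETDB1 one of -0.27 ± 0.73 (SE). MPHOSPH8, a chromodomain subunit of the HUSH silencing complex, had pair differences of -1.37, -2.48 and -1.08, of which the -2.48 rests on background signal on NUDT16 replicate 2. With replicates 1 and 3 and the block MPHOSPH8 was called lower (limma adjusted p 0.0053), as were 3.38% of all probes. It entered the test through the mock arrays alone. HP1 proteins CBX1, CBX3 and CBX5 had group differences of -1.12, -0.91 and -1.02, and none passed the test.

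Probes of one gene mostly had differences of like size. Among 57 members with at least 2 tested probes the median distance between the lowest and the highest difference was 0.36, and in 6 it exceeded 1. The signs differed in 9, namely ZNF135, ZNF137P, ZNF254, ZNF544, ZNF555, ZNF567, ZNF577, ZNF587 and ZNF682. In ZNF137P the differences ran from -0.87 to 0.43, and in ZNF254 from -0.60 to 0.30.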

How the data were processed

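Each of the 6 arrays (3 mock, 3 NUDT16) carried cap-immunoprecipitated RNA, grouped by title. Per the labels' protocols, total RNA was immunoprecipitated, reverse transcribed and labelled with Cy3. Per the file headers, the arrays have Agilent design 039494 and hg19 coordinates, and Feature Extraction 10.7.3.1 read them. As deposited, spots hold a linear intensity, background subtracted and not normalized between arrays, per the file headers. Spots near background carry a surrogate value, which flattens differences between dim probes. The authors also deposited a table of log2 values; how it was made is not given in the sources used here, and it served as an alternative. 

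Control and outlier spots were left out and spots of a probe averaged; 13 of 50599 probes had no usable spot on some array. An array counted as detecting a probe when over 50% of the spots were well above background. Log2 intensity was shifted by each array's 75th percentile over the 6582 probes well above background on all arrays, because over all probes that percentile is a background value on NUDT16 replicate 2. The filter, a full group of arrays well above background, left 17765 probes. The test was lmFit and eBayes of limma 3.58.1 (R 4.3.3), two-sided, without a block, with Benjamini-Hochberg adjustment at 0.05. Arrays limit the precision by their number. The procedure was tested on simulated data.

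Each replicate number had its own slide and scan. Same-numbered arrays deviated together from their group means (correlation 0.84 for replicate 1, 0.39 for 2 and 0.77 for 3), so the numbers pair the arrays, and slide, scan and preparation cannot be told apart. Members, gene lists and role genes were chosen with earlier results of these data known. Named genes were members detected on all 6 arrays: up to 8 in each direction by smallest p, up to 6 in each direction by the block's p among those moving one way in all pairs, and per cluster the one with the largest difference between replicates 3 and 1. Alternatives covered scaling, background correction, filters, the block, the variance prior, the authors' table, a gene's probe mean, replicates 1 and 3 alone and leaving out each array. Of the members' accessions 221 matched RefSeq, and 1, ZNF542, has another current symbol, ZNF542P. No annotation on hg19 was used here, so exons and untranslated regions are not given. Some marker genes and probe sequences are not reported here.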

Additional observations from a re-analysis of the deposited data

How the results depend on the processing

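Across the settings tried, 0 chromosome 19 ZNF genes were called, except for 13 with replicates 1 and 3 only and the replicate block, which called 613 probes in all. The number of probes called was 1 in the reported fit. It was 0 with no scaling, with normexp, with the authors' value table, with no filter and with the filter on all 6 arrays, and from 0 to 1 when one array was left out (0 without mock replicate 2). With the replicate block the counts were also 0 members and 1 probe. The members' median of -0.41 was -1.41 with no scaling, 0.34 with normexp, and from -0.92 to 0.079 when one array was left out; it was -0.83 without mock replicate 1, -0.92 without NUDT16 replicate 3, -0.09 without mock replicate 3, 0.079 without NUDT16 replicate 1 and -0.53 without NUDT16 replicate 2.

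Of 357 values of the 21 named genes under other settings, 328 kept their direction and 29 did not. With no scaling ZNF653 was -0.34, ZNF579 -0.65, ZNF524 -0.66, ZNF787 -0.64, ZNF444 -0.54, ZNF587 -0.38, ZNF497 -0.93, ZNF837 -0.52 and ZNF446 -0.28, all on arrays of unequal brightness. ZNF420 was 0.0044 with quantile normalization, 0.26 with normexp and 0.084 with the authors' value table. ZNF497 was -0.53 with replicates 1 and 3. With one array left out, ZNF226 ranged from -0.94 to 0.24, ZNF420 from -0.37 to 0.19, ZNF486 from -1.28 to 0.033, ZNF497 from -0.55 to 0.97, ZNF526 from -0.40 to 0.33, ZNF579 from -0.013 to 0.70, ZNF600 from -1.76 to 0.048, ZNF625 from -0.97 to 0.61 and ZNF701 from -1.34 to 0.012. The causes were not tested. Where a lone or dim array carries a value, its precision is limited by signal over background: 147 of 190 tested members were at background on NUDT16 replicate 2.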
